A study of Homo sapiens with 10 samples.

Results

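The genes described here encode the nuclear-made subunits of the last 3 complexes of oxidative phosphorylation. They were chosen by symbol alone: every gene whose symbol starts with UQCR, COX4, COX5, COX6, COX7, COX8 or ATP5, plus CYC1. In the 10 libraries 38 such genes carried edited reads, of 10631 genes in all: 9 belong to complex III, 11 to complex IV and 18 to complex V. Another 9 protein-coding genes of the same symbols were listed in no library, namely ATP5MF-PTCD1, ATP5MGL, COX4I2, COX6A2, COX6B2, COX7A1, COX7B2, COX8C and UQCRHL. Among these are the muscle forms COX6A2 and COX7A1, the testis form COX6B2 and COX4I2, the complex IV subunit 4 isoform that low oxygen is known to induce.

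Complex III (ubiquinol-cytochrome c reductase) passes electrons from ubiquinol to cytochrome c, complex IV (cytochrome c oxidase) passes them on to oxygen, and complex V (ATP synthase) uses the resulting proton gradient to make ATP. Most of their subunits are encoded in the nucleus, translated on cytosolic ribosomes and imported into mitochondria. A few core subunits are encoded in mitochondrial DNA (MT-CYB for complex III, MT-CO1, MT-CO2 and MT-CO3 for complex IV, MT-ATP6 and MT-ATP8 for complex V) and are made by mitochondrial ribosomes, which do not contain RPS2. Many nuclear subunits are short proteins, and cells keep both sources in balance.

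Ribo-STAMP is a fusion of the cytidine deaminase APOBEC1 to RPS2, a protein of the small cytosolic ribosomal subunit, which leaves C-to-U edits in the mRNAs a ribosome holds. The edits were read here by long-read sequencing of polyadenylated RNA. HEK293T cells, an embryonic kidney line carrying the SV40 large T antigen, held a doxycycline-inducible vector for free APOBEC1 (n = 3 libraries) or for Ribo-STAMP (n = 3), both induced for 72 h with 1 ug/mL doxycycline. MDA-MB-231 cells, a triple-negative breast cancer line, held the inducible Ribo-STAMP vector, were all induced for 48 h with 1 ug/mL doxycycline, and were untreated (n = 2) or given 100 uM CoCl2 for 48 h (n = 2). CoCl2 stabilises hypoxia-inducible factors and is used to mimic low oxygen. There was no free-APOBEC1 or uninduced group in MDA-MB-231, and the editor was expressed from a vector in every group. Library kits and induction times differed between the lines, so nothing was tested between them. The labels number the replicates without naming separate cultures, and the p-values therefore measure only the spread between these libraries, which may be technical.

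An entry of the data is a coding position of an isoform with its edited reads and its covering reads, and only positions with at least 1 edited read were listed. The edited reads of a gene are summed over its listed positions, so a read edited at several positions counts several times. The reads on listed isoforms were 81592 to 203094 per HEK293T library and 1120240 to 1204720 per MDA-MB-231 library. An isoform is listed only if it carries an edit, so these sums follow editing as well as depth. In HEK293T they were 81592 to 110526 with free APOBEC1 and 157544 to 203094 with Ribo-STAMP. Relative depth, taken from isoforms listed in every library, was 0.819 to 1.07 and 0.945 to 1.15. Of the 38 genes, 23 were listed in some HEK293T library and all 38 in some MDA-MB-231 library, 36 of them in every one. Free-APOBEC1 libraries listed 6, 4 and 2 of them, HEK293T Ribo-STAMP libraries 13, 12 and 16, untreated MDA-MB-231 libraries 36 and 38, and CoCl2 libraries 37 and 37. Only ATP5F1A and ATP5F1B, the α and β subunits that form the catalytic head of ATP synthase, were listed in all 10 libraries. As a check of the line labels, 9 of 9 MDA-MB-231 markers and 1 of 7 HEK293T markers passed the coverage filter in MDA-MB-231. In HEK293T, 2 of 7 HEK293T markers and 0 of 9 MDA-MB-231 markers passed the filter on edited reads. Under the coverage filter 0 of 7 and 0 of 9 did, so the HEK293T label was barely checked.

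In HEK293T the question was how much more these mRNAs were edited by the ribosome-bound than by the free deaminase. ATP5F1A carried 2, 8 and 5 edited reads in the free-APOBEC1 libraries and 77, 172 and 375 in the Ribo-STAMP libraries. ATP5F1B carried 3, 5 and 6 against 71, 140 and 226. For both genes every Ribo-STAMP library lay above every free-APOBEC1 library, with no overlap. Divided by relative depth, the mean was 5.32 ± 3.14 (SD, n = 3) against 202 ± 146 (SD, n = 3) edited reads for ATP5F1A. It was 5.04 ± 2.26 against 142 ± 77.2 (SD, n = 3 each) for ATP5F1B.

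On log2(edited reads per relative depth + 1), ATP5F1A rose by 4.86 (SE 0.58, limma adjusted p = 2.83e-10) and ATP5F1B by 4.46 (SE 0.56, limma adjusted p = 9.02e-10). These 2 were the only members with at least 10 edited reads in 3 libraries, and both were called, where 99.7% of the 654 genes tested were called higher and 0.153% lower. A share of 2 of 2 against that background says nothing particular to these genes. In each free-APOBEC1 library both had under 10 edited reads. They entered the test through the Ribo-STAMP libraries alone, so a rise was favoured in advance. With no filter on low values, 5 of 23 members were called higher, where 32.4% of 7004 genes were: beside ATP5F1A and ATP5F1B these were UQCRC1, UQCRC2 and ATP5PB. Scaling that removes the global gain (TMM, a trimmed mean of ratios between libraries) left ATP5F1A at 1.09 (limma adjusted p = 0.474) and ATP5F1B at 0.67 (limma adjusted p = 0.563), and neither was called, where 3.82% of genes were called higher.

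Editing per covering read divides the edits by the coverage of the mRNA. That need not remove every effect of abundance, as levels fell with coverage in MDA-MB-231 (below). The measure counts edits over all listed positions and is not the share of reads that were edited. ATP5F1A had 0.524, 2.09 and 2.02 edited reads per 100 covering reads with free APOBEC1 and 50.3, 69.4 and 83.9 with Ribo-STAMP. ATP5F1B had 0.805, 1.34 and 2.43 against 71.0, 73.7 and 70.4. The Ribo-STAMP values of ATP5F1B lay close together, while those of ATP5F1A spread widely. The median gene stood at 2.37 to 2.92 with free APOBEC1 and 33.5 to 36.9 with Ribo-STAMP, so both ATP synthase genes were below the median gene in each free-APOBEC1 library and above it in each Ribo-STAMP library (levels per covering read, which rise with the number of coding cytidines).

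The test used another scale, in which the covering reads count once for each listed position of the gene. On it the log2 ratio of edited to unedited reads rose by 5.50 (SE 0.46, limma adjusted p = 8.24e-08) for ATP5F1A and by 5.56 (SE 0.43, limma adjusted p = 3.97e-08) for ATP5F1B, where 95.7% of 392 genes were called higher. With each library centred on its median gene, the rise was 2.13 (limma adjusted p = 0.00351) and 2.18 (limma adjusted p = 0.00188), a setting in which 18.6% of genes were called higher. Coverage showed no such gain. Scaled covering reads of ATP5F1B were 353, 377 and 307 with free APOBEC1 and 84.6, 197 and 306 with Ribo-STAMP, a lower range without overlap that 9.95% of genes also showed. For ATP5F1A they were 362, 388 and 309 against 129, 257 and 426, which overlapped. With 3 libraries against 3, an exact permutation test of a single value cannot go below 0.1.

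**Figure D1:**
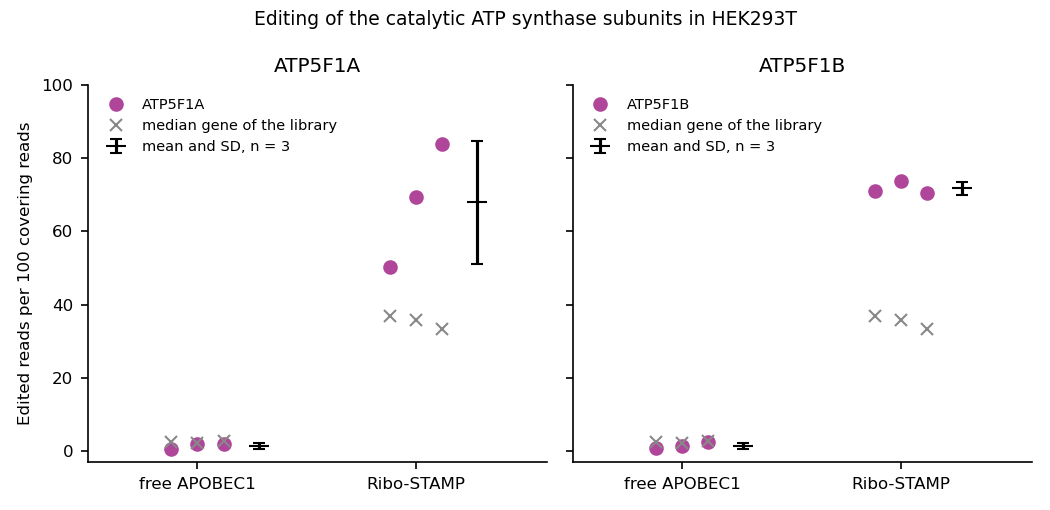
Edited reads per 100 covering reads of ATP5F1A (left) and ATP5F1B (right) in each HEK293T library with free APOBEC1 or Ribo-STAMP; points are libraries, crosses the median gene of the same library, bars the mean and SD (n = 3). The Ribo-STAMP points lie at 50.3 to 83.9, above the crosses at 33.5 to 36.9, and the free-APOBEC1 points lie at 0.524 to 2.43.

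The remaining members were sparse in HEK293T. UQCRC1, a core protein of complex III, carried 0 edited reads in each free-APOBEC1 library and 7, 14 and 35 in the Ribo-STAMP libraries. Its partner UQCRC2 carried 0 in each and 7, 15 and 21, and ATP5PB, the b subunit of the peripheral stalk that holds the catalytic head still, carried 1, 0 and 0 against 5, 6 and 18. ATP5F1C, the γ subunit that turns inside the head, carried 0, 1 and 0 against 1, 2 and 12. No complex IV gene passed 5 edited reads in any HEK293T library; COX6A1 (5) and COX4I1 (4) were the highest, both in Ribo-STAMP replicate 3.

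Edited reads per 1000 covered coding cytidines put genes of different length on one scale. In the Ribo-STAMP libraries ATP5F1A stood at 1.43, 1.97 and 2.38, ATP5F1B at 1.88, 1.95 and 1.86, ATP5PB at 1.42, 1.62 and 3.01 and UQCRC2 at 1.06, 1.78 and 1.07. The median of 1392 genes with at least 20 covering reads was 0.645, 0.671 and 0.677, and each of these 4 members was above it in each library. The edits fell on 145 positions of ATP5F1A, 28 of them in all 3 Ribo-STAMP libraries, and on 113 positions of ATP5F1B, 19 of them in all 3. Free APOBEC1 edited 14 and 10 positions, of which 8 and 7 were also edited with Ribo-STAMP. No position of either gene was listed in all 6 libraries. The same held for every gene of a line, so this is a property of the files and no result about these genes. The counts of shared positions are lower limits for that reason. The most edited one, in ATP5F1B, had 6 of 100 reads edited (6%, exact 95% Clopper-Pearson interval 2.23 to 12.6), 16 of 187 (8.56%, 4.97 to 13.5) and 35 of 318 (11.01%, 7.79 to 15.0) in the Ribo-STAMP libraries and was not listed with free APOBEC1. Such intervals cover counting error only.

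In MDA-MB-231 the question was what CoCl2 did to the coverage of these mRNAs, a stand-in for their abundance, and to their editing. Coverage was higher with CoCl2 for 28 of the 36 members tested and lower for 0, where 24.1% of 5673 genes were called higher and 19.4% lower (limma, adjusted p under 0.05). All 36 changes were positive, with a median of 0.82 on the log2 scale against -0.05 for all genes. The calls were 7 of 9 in complex III (median 0.91), 7 of 9 in complex IV (median 0.77) and 14 of 18 in complex V (median 0.77). In 34 of the 36 both CoCl2 libraries lay above both untreated libraries, which 38.7% of all genes also showed. Coverage is scaled within a library, so more RNA per cell and a larger share of the library cannot be told apart.

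Among the electron-carrying subunits of complex III, CYC1 (cytochrome c1) had 564 and 691 scaled covering reads untreated and 1326 and 1183 with CoCl2. UQCRFS1, the Rieske iron-sulfur protein, had 328 and 456 against 802 and 720. Both rose, CYC1 by 1.00 (SE 0.19, limma adjusted p = 0.00177) and UQCRFS1 by 0.97 (SE 0.20, limma adjusted p = 0.00216). The core protein UQCRC1 had 516 and 588 against 1059 and 936 and rose by 0.85 (SE 0.19, limma adjusted p = 0.00277). Its partner UQCRC2 had 77.96 and 107 against 102 and 85.9. Those ranges overlapped, and the change was 0.04 (95% interval -0.50 to 0.58, limma adjusted p = 0.904). The small subunits UQCR10, UQCR11, UQCRH (the acidic hinge protein) and UQCRQ rose by 0.84 to 1.00, and UQCRB was at 0.42 (limma adjusted p = 0.16).

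In complex IV the range was narrow. COX4I1, the largest nuclear subunit and a contact of the catalytic core, had 123 and 194 scaled covering reads untreated and 282 and 325 with CoCl2, a rise of 0.97 (SE 0.24, limma adjusted p = 0.00461). COX6A1, which lies near the dimer interface, had 186 and 211 against 360 and 358, a rise of 0.85 (SE 0.21, limma adjusted p = 0.00454). COX5A, COX5B (the zinc-binding subunit), COX6B1, COX7C and COX8A rose by 0.67 to 0.89. COX7B was at 0.64 and COX7A2L, which links complexes III and IV in supercomplexes, at 0.58, with limma adjusted p = 0.0683 and 0.0805. COX6C and COX7A2 were not tested: COX6C was listed in 1 untreated library with 1 edited read, and COX7A2 carried 0 and 1 edited reads untreated and 3 and 1 with CoCl2.

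Complex V held the largest rise among the members, and in its ATP5F1A a change as small as that of UQCRC2. ATP5IF1, the inhibitor that binds the catalytic head and blocks ATP hydrolysis when the proton gradient fails, had 42.8 and 44.4 scaled covering reads untreated and 96.8 and 93.5 with CoCl2. It rose by 1.11 (SE 0.27, limma adjusted p = 0.00442). These values rest on the 1 isoform that all 4 libraries listed. Another isoform, with 42 reads in untreated replicate 1 and 39 in CoCl2 replicate 1, was not listed in the other libraries and was left out. Over all listed isoforms the unscaled reads were 87 and 47 untreated and 138.5 and 86 with CoCl2, ranges that overlapped. In the catalytic head, ATP5F1B had 1863 and 2496 against 3185 and 3208 and rose by 0.57 (SE 0.18, limma adjusted p = 0.0182). ATP5F1A had 1339 and 1904 against 1596 and 1688, ranges that overlapped, with a change of 0.04 (95% interval -0.36 to 0.44, limma adjusted p = 0.87). The central stalk rose: ATP5F1C by 0.97, ATP5F1D by 0.70 and ATP5F1E by 0.77.

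Of the membrane ring, ATP5MC1 rose by 0.98 and ATP5MC3 by 0.72, and ATP5MC2 was at 0.48 (limma adjusted p = 0.148). These 3 genes encode the same mature c subunit with different import sequences, and their values, like those of members with processed pseudogenes, are uncertain as far as reads could be shared between copies. In the peripheral stalk ATP5PB, ATP5PF and ATP5PO rose by 0.81 to 0.95, and ATP5PD was at 0.60 (limma adjusted p = 0.114). The small membrane subunits ATP5ME, ATP5MF, ATP5MG and ATP5MJ rose by 0.75 to 1.02, and ATP5MK was at 0.55 (limma adjusted p = 0.0569). In MDA-MB-231, 20 of the 38 members were listed with 1 annotated isoform. ATP5F1D divided its reads between 2, with 45.5 to 57.1% on one of them, and a second COX4I1 isoform was listed in the CoCl2 libraries only, with 16 and 14 reads.

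**Figure D2:**
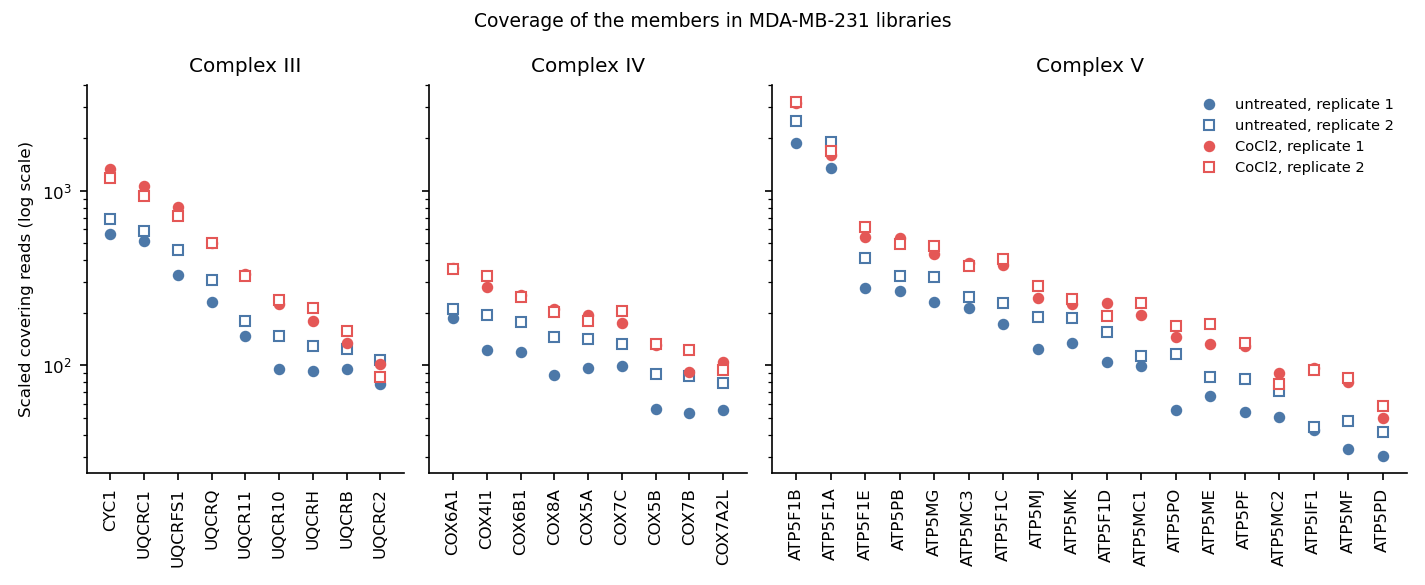
Scaled covering reads (log axis) of the 36 tested members in the 2 untreated (blue) and 2 CoCl2 (red) MDA-MB-231 libraries, by complex; circles are replicate 1, squares replicate 2. Red points lie above both blue points in 34 genes, UQCRC2 and ATP5F1A overlap, and untreated replicate 2 is above untreated replicate 1 in all 36.

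The untreated replicates differed for these genes. Untreated replicate 2 was above untreated replicate 1 in 36 of 36 members, by a median of 0.47 on the log2 scale against -0.01 for all genes. That replicate difference fell with coding length across all genes (Spearman -0.46 over genes, which are not independent replicates). CoCl2 replicate 2 was above replicate 1 in 21 of 36, with a median of 0.04. Without untreated replicate 1 the calls were 28 of 36 (25.6% of all genes called higher) and the members' median 0.54. Without untreated replicate 2 they were 35 of 36 (34.5% of all genes) and 1.05. Without CoCl2 replicate 1 no member and 0% of all genes were called higher, and without CoCl2 replicate 2 no member and 0.0350% of all genes, with members' medians of 0.85 and 0.82. The loss was thus one of nearly every call, not of the members' alone. In each case the lone library was assumed to vary like the other group.

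Transcript length moved with the change in coverage. Across 5660 genes the log2 change had a Spearman correlation of -0.59 with coding length and -0.64 with annotated transcript length. The members are short, with a median coding length of 340 bases against 1174 for all genes tested. Among the shortest of 4 equal classes by coding length, which holds 28 of the 36 members, 22 of the 28 were called higher, where 49.6% of all genes there were. In the shortest class by annotated length 63.9% of all genes were called higher. Length and the treatment cannot be told apart for most members.

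With the trend on annotated length taken out of each library, 7 of 36 members were called higher and 0 lower, where 8.99% of genes were called higher and 7.14% lower, and the members' median was 0.02. With the trend on coding length taken out, a setting chosen after seeing the data, 5 were called higher and 0 lower, where 11.7% of genes were called higher and 11.1% lower, and the median was 0.19. UQCRC1 and UQCRFS1 of complex III were called as measured and in both settings. UQCRC1 was at 0.63 (limma adjusted p = 0.0113) without the annotated-length trend and at 1.02 (limma adjusted p = 0.00912) without the coding-length trend. UQCRFS1 was at 1.48 (limma adjusted p = 0.00212) and 0.64 (limma adjusted p = 0.0255). No complex IV gene but COX7A2L was called in either setting, at 1.01 (limma adjusted p = 0.0229) without the annotated-length trend. UQCRFS1, ATP5PB, ATP5MC3, ATP5F1E, UQCRB and COX7A2L have annotated transcripts of 3056 to 5575 bases, far longer than their coding sequences.

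**Figure D3:**
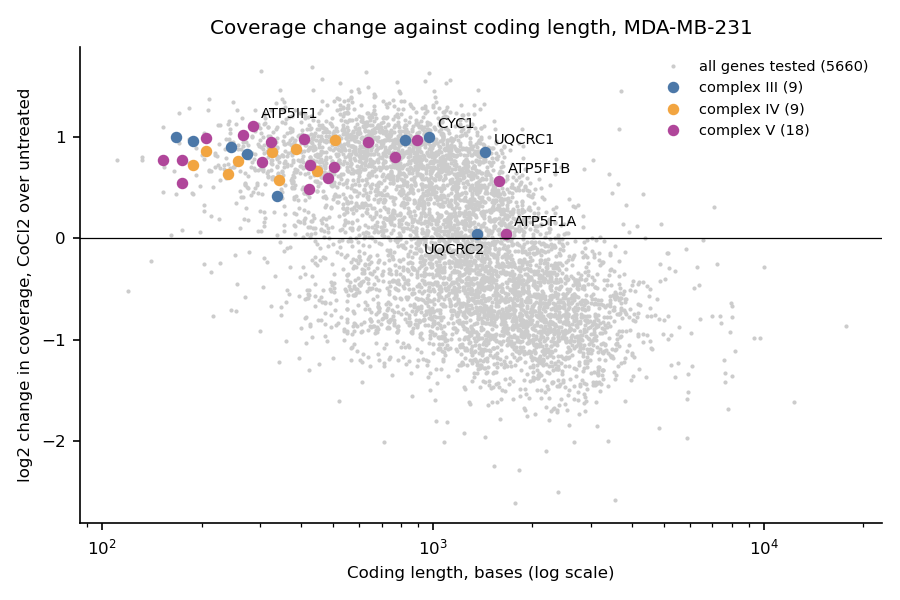
log2 change in coverage (CoCl2 over untreated, MDA-MB-231) against coding length in bases (log axis); grey points are all 5660 genes with a length and coloured points the 36 members by complex. Short genes lie mostly above 0 and long genes below it, and UQCRC1, ATP5F1B, UQCRC2 and ATP5F1A are the longest members.

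The other genes of the pathway were counted from lists chosen with earlier results of these data known. Of 33 nuclear complex I subunits tested, 26 were called higher in coverage and 1 lower (NDUFS1, at -0.90), with a median of 0.85, beside shares of 24.1% higher and 19.4% lower over all genes, to which each count in this paragraph compares. Complex II had 2 of 4 higher (SDHB and SDHC). Of 8 carriers and exchange partners 6 were called higher and 1 lower. The ADP/ATP exchangers SLC25A4, SLC25A5 and SLC25A6 and the phosphate carrier SLC25A3 rose by 0.75 to 1.03, VDAC2 and VDAC3 rose, and VDAC1 fell by 0.51. CYCS, the cytochrome c that carries electrons from complex III to IV, was at -0.24 (limma adjusted p = 0.303). Assembly factors gave 1 higher and 1 lower of 4 for complex III, 11 and 1 of 20 for complex IV and 1 and 0 of 4 for complex V. The mitochondrially encoded MT-CYB, MT-CO1, MT-CO2 and MT-CO3 rose by 0.49 to 0.80, and MT-ATP6 was at 0.16. Without the annotated-length trend, where 8.99% of genes were called higher and 7.14% lower, complex I had 6 higher and 1 lower of 33. The 5 mitochondrially encoded genes then had 0 higher and 1 lower, all 5 with a negative change (median -0.17). The coding-length setting, in which 11.7% of genes were called higher and 11.1% lower, gave another picture. There complex I had 8 higher and 1 lower of 33 (median 0.23). The 5 mitochondrially encoded genes had 1 higher and 0 lower, with 4 positive changes and a median of 0.45.

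Genes tied to the hypoxic remodelling of respiration gave 2 higher and 1 lower of 4 tested. BNIP3, a mitophagy receptor, rose by 1.55 (limma adjusted p = 0.000569) and CHCHD2, a transcriptional activator of COX4I2, by 0.96. LONP1, the protease that degrades COX4I1 in hypoxia, fell by 1.21 on the log2 scale (limma adjusted p = 0.00215). HIGD1A was at -0.14. COX4I2, NDUFA4L2 and PDK1 were not tested. Of the regulators of nuclear respiratory genes, 0 of 3 tested were called by limma (PPRC1 at -0.81, TFAM at -0.55 and YY1 at 0.01), and 2 of those 3 had an unadjusted p under 0.05, as had 3044 of the 5673 genes.

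Promoter sequence was available for 31 of the 38 members (RefSeq, GRCh38.p14, 250 bases before to 50 after the start). The 120-base stretches below are from the members with a large (UQCR11, ATP5IF1) and with the smallest (UQCRC2, ATP5F1A) change in coverage, and capitals mark the searched motifs.
UQCR11, chr19:1605463-1605582, minus strand: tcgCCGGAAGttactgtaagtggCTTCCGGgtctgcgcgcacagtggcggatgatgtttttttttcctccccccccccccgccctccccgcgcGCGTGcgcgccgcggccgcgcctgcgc
ATP5IF1, chr1:28236004-28236123, plus strand: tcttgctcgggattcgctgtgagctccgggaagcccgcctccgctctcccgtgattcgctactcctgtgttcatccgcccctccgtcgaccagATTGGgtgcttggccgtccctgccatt
UQCRC2, chr16:21953241-21953360, plus strand: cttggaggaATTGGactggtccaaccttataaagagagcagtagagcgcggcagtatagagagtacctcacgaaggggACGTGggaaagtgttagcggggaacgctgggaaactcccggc
ATP5F1A, chr18:46104228-46104347, minus strand: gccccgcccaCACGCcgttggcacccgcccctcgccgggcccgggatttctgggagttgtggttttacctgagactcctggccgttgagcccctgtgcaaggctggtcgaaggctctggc

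The motifs were searched on both strands of the 300 bases. The ETS motif CCGGAAG, the kind bound by GABPA, was in 13 of 31 member promoters (41.9%), against 23.9% of the promoters of genes tested for coverage and 10.7% of all 27305 promoters. By complex these were 3 of 7, 5 of 10 and 5 of 14. The palindromic NRF1 motif was in 1 (3.23%, against 2.70% of tested genes), the YY1 motif ATGGCGG in 4 (12.9%, against 13.5%) and CCAAT in 14 (45.2%, against 38.4%). The core that hypoxia-inducible factors bind, ACGTG or GCGTG, was in 18 (58.1%, against 67.0% of tested genes). The oestrogen-related receptor motif TCAAGGTCA was in 0 of 31, against 0.105%. A match is a run of letters and no evidence of binding.

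Edited reads were also higher with CoCl2 for part of the members. In total edited reads divided by relative depth, 11 of 35 members tested were called higher and 0 lower, where 12.1% of 4097 genes were called higher and 2.9% lower. All 35 changes were positive, with a median of 1.24 against 0.19 for all genes, and in 28 of the 35 both CoCl2 libraries lay above both untreated ones, as in 41.3% of all genes. The calls were 4 of 9 in complex III (CYC1, UQCRC1, UQCRFS1 and UQCRH), 3 of 9 in complex IV (COX4I1, COX6A1 and COX7C) and 4 of 17 in complex V (ATP5F1C, ATP5MC3, ATP5PB and ATP5PF). Among the members called, UQCRH, COX7C and ATP5PF would not have passed the filter on edited reads by their untreated libraries alone. ATP5F1E, ATP5PD, COX8A and UQCR11, which were not called, were below that filter in both untreated libraries. For members that needed their CoCl2 libraries to enter the test, a rise was favoured in advance.

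COX6A1 carried 22 and 16 edited reads untreated and 59 and 60 with CoCl2, a rise of 1.76 (SE 0.36, limma adjusted p = 0.0298). COX4I1 carried 15 and 15 against 43 and 42, a rise of 1.59 (SE 0.37, limma adjusted p = 0.0305). ATP5MC3 carried 17 and 16 against 46 and 43, a rise of 1.53 (SE 0.36, limma adjusted p = 0.0308). In these 3 genes the untreated pair and the CoCl2 pair were each tight and well apart. COX7C had the highest change of all members, from 4 and 10 to 20 and 26 edited reads (1.82, SE 0.54, limma adjusted p = 0.0431). It needed its CoCl2 libraries to pass the filter, so its rise was favoured in advance. UQCRC2 did not follow, with 39 and 52 against 55 and 33. With the annotated-length trend taken out 3 members were called, where 2.25% of genes were called higher, and with the coding-length trend taken out 0, where 0.489% were. The 3 were 1 in complex III, 0 in complex IV and 2 in complex V, so neither COX6A1 nor COX4I1 was among them. Without CoCl2 replicate 1 or 2 no member was called, where 0.0431 and 0.0637% of all genes were called higher. Without untreated replicate 2 the count was 21 of 36, where 22.9% of all genes were.

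Editing per covering read was not called for any member or for any of the 5673 genes (limma, 0% called; 484 genes and 5 members had an unadjusted p under 0.05). The median change in the log2 ratio of edited to unedited reads was 0.36 for the 36 members and 0.20 for all genes, and 30 of the 36 were positive. In 19 members both CoCl2 libraries lay above both untreated ones, as in 30.1% of all genes, and in 1 both lay below, as in 9.64%. Edited reads per 100 covering reads of COX7C were 3.85 and 7.14 untreated and 11.8 and 13.8 with CoCl2, a change of 1.20 (95% interval 0.27 to 2.12, limma adjusted p = 0.519). For ATP5MK, a subunit of the dimer interface, they were 4.26 and 4.06 against 8.68 and 10.0, a change of 1.11 (95% interval 0.39 to 1.82, limma adjusted p = 0.519). For ATP5MJ they were 3.05 and 4.98 against 1.68 and 3.82, and the change was -0.62 (95% interval -1.54 to 0.29). The test cannot tell these from no change after adjustment. Nor is the measure free of coverage, with which the levels of listed editing fell (below). For UQCRC1 they were 14.7 and 14.1 against 17.4 and 15.8, a change of 0.20 (95% interval -0.24 to 0.63). For ATP5F1B they were 3.62 and 4.31 against 4.86 and 5.53, with no overlap, and the change was 0.39 (95% interval -0.01 to 0.79, limma adjusted p = 0.577).

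The level of listed editing differed widely among the members. No position was listed in all 4 libraries, so the levels of the heavily covered members are lower limits in the sense given below. Those of the other members may be too. On the scale of edited reads per 1000 covered coding cytidines, UQCRB stood at 2.36 and 2.28 untreated and 2.83 and 3.54 with CoCl2, and ATP5MF at 4.46 and 2.51 against 4.45 and 2.25. At the other end ATP5F1B stood at 0.0959 and 0.114 against 0.128 and 0.146, and ATP5F1A at 0.190 and 0.2001 against 0.215 and 0.249. CYC1 (0.266 to 0.381), UQCRC1 (0.354 to 0.436) and UQCRFS1 (0.298 to 0.519) were also low, while UQCRC2 was at 1.39 to 1.83. The median of 4392 genes was 0.623 and 0.650 untreated and 0.751 and 0.715 with CoCl2, and 27 to 31 of the 36 members were above the median of their library.

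These levels fell as coverage rose. Over the 36 members the Spearman correlation with covering reads was -0.75 and -0.82 untreated and -0.78 and -0.72 with CoCl2, while over all genes it was -0.32 and -0.27, and -0.18 and -0.18. The points share the covering reads as denominator, so these are descriptions. In the mitochondrially encoded MT-CYB, MT-CO1, MT-CO2 and MT-CO3, which are not translated by the ribosomes that carry the fusion, the level was 0.0619 to 0.0911 over the 4 libraries, with a median of 0.0762. Other mitochondrially encoded genes with fewer reads spread more widely: MT-ATP6 was at 0.0415 to 0.0933, MT-ND1 at 0.09999 to 0.116 and MT-ND5 at 0.0420 to 0.159. MT-ND3 (0.151 and 0.158) and MT-ATP8 (0.273) reached 20 covering reads with CoCl2 only. ATP5F1B, at 0.0959 to 0.146, lay above the 4 heavily covered genes and within the span of all of these.

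**Figure D4:**
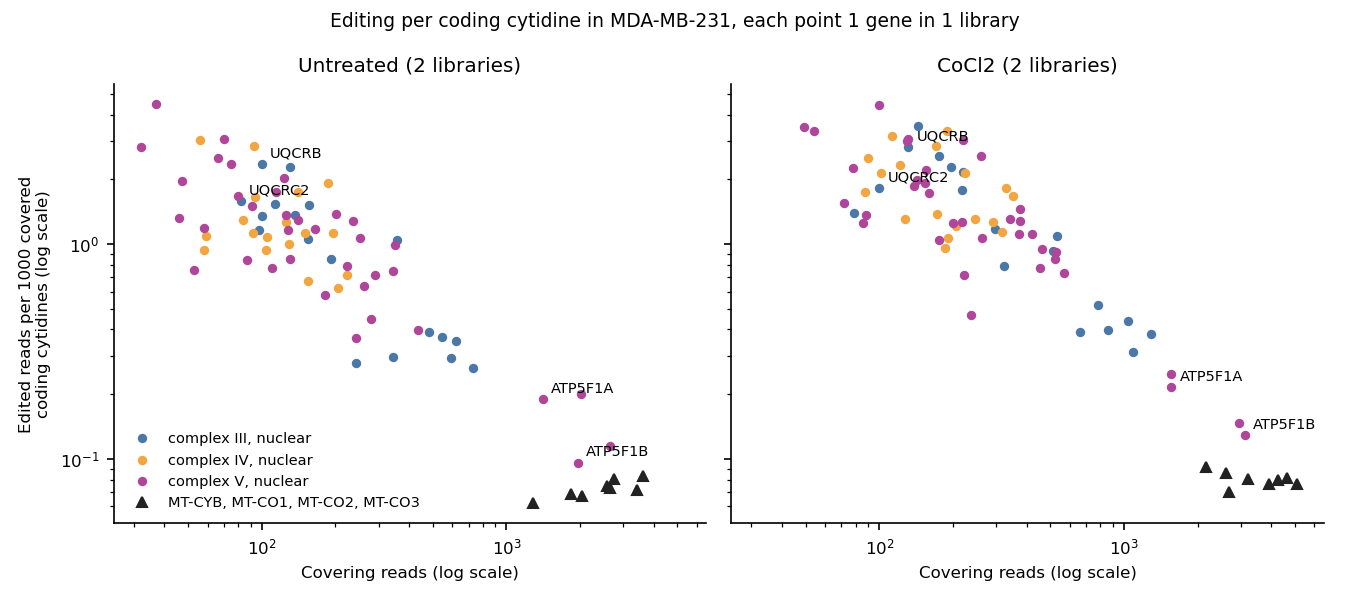
Edited reads per 1000 covered coding cytidines against covering reads (both log axes) in untreated (left) and CoCl2 (right) MDA-MB-231 libraries, each point 1 gene in 1 library; colours are complexes and black triangles the mitochondrially encoded MT-CYB, MT-CO1, MT-CO2 and MT-CO3. The nuclear members slope down from UQCRB to ATP5F1A and ATP5F1B, and the triangles lie lowest, at 0.0619 to 0.0911.

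In the heavily covered members the listed cytidines were of a different kind. APOBEC1 is known to prefer a cytidine after A or U. Among all edited positions of MDA-MB-231, 80.0 to 81.3% lay after A or U, against 63.2 to 66.1% in the members, although coding cytidines after A or U made up 43.3 and 42.3% of all coding cytidines in all genes and in the members. By gene the share ran from 14.7% in ATP5F1B, 31.1% in ATP5F1A, 37.9% in CYC1 and 40.5% in UQCRC1 to 88.4% in UQCRC2 and 92.3% in UQCR10. The first 4 are the members with the most covering reads.

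Counted over the cytidines of each coding sequence, ATP5F1B had 25 of 165 cytidines after A or U listed in some library (15.2%) and 145 of 213 after C or G (68.1%). ATP5F1A had 49 of 173 (28.3%) and 95 of 179 (53.1%). UQCRC2 had the opposite balance, with 84 of 142 (59.2%) and 11 of 159 (6.92%). Over the 32 members other than ATP5F1A, ATP5F1B, UQCRC1 and CYC1 the shares were 58.3 and 16.5%. The reversal was not peculiar to these genes: over the 149 genes with at least 1000 covering reads, 32.9% of cytidines after A or U and 49.5% of those after C or G were listed, against 10.6 and 1.11% in the class of lowest coverage among 4 equal classes.

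**Figure D5:**
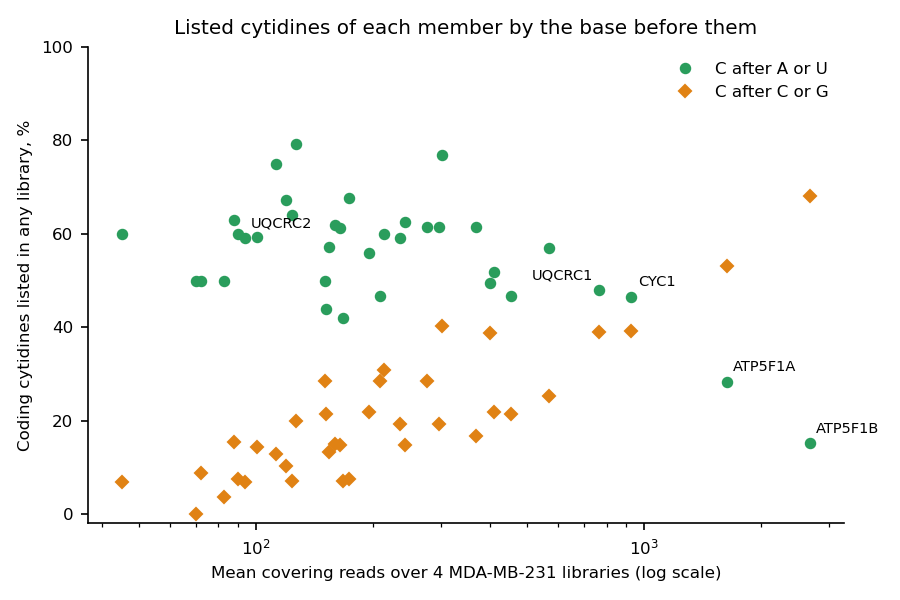
Percent of each member's coding cytidines listed in any of the 4 MDA-MB-231 libraries, against mean covering reads (log axis), for cytidines after A or U (circles) and after C or G (diamonds). The diamonds climb with coverage to 68.1% in ATP5F1B, and the circles drop there to 15.2%.

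Weighted by reads, ATP5F1B had 0.0495 and 0.0734 edited reads per 1000 covered cytidines after A or U untreated and 0.0760 and 0.0986 with CoCl2. After C or G it had 0.132 and 0.146 against 0.169 and 0.183, which was higher in each library. The 32 other members, pooled, had 1.63 and 2.05 after A or U untreated and 2.37 and 2.46 with CoCl2, against 0.267 and 0.253, and 0.305 and 0.320, after C or G. MT-CYB, MT-CO1, MT-CO2 and MT-CO3, pooled, had 0.0746 and 0.0808, and 0.0886 and 0.0821, after A or U and 0.0705 to 0.0718 after C or G, so the context made little difference there.

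No position of any gene was listed in all 4 MDA-MB-231 libraries, and the sources used here do not say which step left such positions out. Of the 1749 positions listed in the members, 876 were in 1 library, 486 in 2 and 387 in 3. The share after A or U rose along that order, from 41.9 to 63.8 to 83.7%, and for ATP5F1B from 4.62 to 14.5 to 30.2%. For all genes it was 71.1, 86.2 and 92.1%. A position edited often enough in a heavily covered mRNA would be seen in every library and so be missing here. The edited reads of ATP5F1A, ATP5F1B, CYC1 and UQCRC1 are lower limits in that sense. Those of the other members may be too, since none of them had a position in all 4 libraries. How much was left out was not tested.

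Leaving aside CYC1, UQCRB and COX6C, 10 positions were taken as those with the most edited reads, 5 in each group, and 6 of them are shown as they stand in the mRNA (GENCODE 29 transcripts, GRCh38), 10 bases each side, with the edited cytidine in capitals. The 6 cover each of the 5 genes in that set and were chosen after their values were seen.
UQCRFS1, codon 218: ggtgtttgcaCtcatcttggc
UQCRC1, codon 222: tacctcagcaCacattacaag
UQCRC1, codon 11: cgggccgctaCcgccggggca
ATP5F1C, codon 247: gagtccaccaCtagtgagcag
ATP5PB, codon 99: agcgcagagaCcttcactgcc
ATP5F1A, codon 64: ggagctgataCctctgttgat

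Of the 10 positions, 9 edits change the encoded amino acid, among them all 6 shown, and 1 in ATP5F1A is synonymous. The UQCRFS1 position (chromosome 19, 29207720, minus strand) was edited in 2 of 498 reads in untreated replicate 2 (0.402%, exact 95% Clopper-Pearson interval 0.0487 to 1.44) and was not listed in the other untreated library. With CoCl2 it was edited in 10 of 796 reads (1.26%, 0.604 to 2.30) and 3 of 675 (0.444%, 0.0917 to 1.29). The intervals overlap. The UQCRC1 position at codon 222 (chromosome 3, 48603605, minus strand) was edited in 7 of 540 (1.30%) and 5 of 620 reads (0.806%) untreated, and in 3 of 861 (0.348%) in CoCl2 replicate 2. The ATP5F1C position (chromosome 10, 7802372, plus strand) had 1 of 242 reads in untreated replicate 2 and 6 of 365 and 6 of 375 with CoCl2.

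The position at codon 11 of UQCRC1 (chromosome 3, 48609589, minus strand) had 6 of 521 reads edited in untreated replicate 1 and 8 of 1000 and 7 of 832 with CoCl2. The ATP5PB position (chromosome 1, 111456158, plus strand) had 4 of 281 and 4 of 343 untreated and 4 of 522 in CoCl2 replicate 1. The ATP5F1A position (chromosome 18, 46091800, minus strand) had 5 of 1120 and 5 of 1624 untreated and 2 of 1253 in CoCl2 replicate 2. Each was edited in under 2% of its reads. Each was listed in 3 of the 4 libraries, the most that any position reached, so a missing entry is no evidence of absent editing in that library.

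Edits were spread along the coding sequence: the median position was at 0.501 to 0.523 of its length in the members and at 0.511 to 0.514 in all genes. Of the members' positions 5.92 to 9.61% would create a stop codon, against 5.70 to 5.91% in all genes. COX7B had the largest such share among members with at least 20 positions, 5 of 21 positions (23.8%), and ATP5PB had 12 of 77 (15.6%). Most positions rested on a single read, 62.1 to 80.6% in the members and 79.6 to 82.4% in all genes.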

How the data were processed

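Each library came as 1 deposited text file in which a cell holds a pair of read counts, edited reads and coverage, for a coding position of an annotated isoform (read from the values, as no file has a header). The builds are hg19 and hg38, per the submitters' processing notes. Aligner, edit caller and the sharing of reads among paralogs, pseudogenes and strands: not given in the sources used here. The MDA-MB-231 files fitted GENCODE 29 (GRCh38) and the HEK293T files did not, so positions and sequence context are given for MDA-MB-231 only. Gene names matched 10550 of 10631 identifiers. The members and lists were chosen with earlier results of these data known. Named positions are those with the most edited reads in a group, leaving aside CYC1, UQCRB and COX6C.

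Edited reads per gene were summed and divided by relative depth (median ratio of isoform coverage). Coverage per gene sums the isoforms that all libraries of a line list, scaled by TMM (trims of 30 and 5%). The per-read measure took these isoforms too, with 0.5 added to edited and unedited reads. They must carry an edit in each library, so the HEK293T set holds only mRNAs that free APOBEC1 also edited. The filter was 10 edited reads or more in 3 (HEK293T) or 2 (MDA-MB-231) libraries, and a mean coverage of 10 or more for the other measures. Tests were two-sided and used limma 3.58.1 in R 4.3.3, with a trend on intensity, over all genes of a line on log2(value + 1) or the log2 ratio. A call is a Benjamini-Hochberg adjusted p under 0.05. Each cell holds 2 numbers, so no count model was used. Adding 1 understates changes of low genes. Editing per coding cytidine divides edited reads by covering reads times coding cytidines, for genes with at least 20 covering reads. Length trends were loess fits (span 0.5) of each library's deviations on log2 length. Lists are described by counts and medians with no set test. The code was checked on simulated data.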

Additional observations from a re-analysis of the deposited data

How the results depend on the processing

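In HEK293T edited reads, 2 members were called; the count was 0 with TMM scaling (3.82% of all genes called higher), 0 with the annotated-length trend (0.309%) and 0 with the coding-length trend (0.617%) taken out, 5 with no filter on low values (32.4%), and 2 to 4 with each replicate left out, all of those tested. In MDA-MB-231 coverage the 28 calls became 7 and 5 with the annotated-length (8.99%) and coding-length (11.7%) trends taken out, and 0 to 35 with each replicate left out. In MDA-MB-231 edited reads the 11 calls became 4 with TMM scaling (5.17%), 3 with the annotated-length trend (2.25%) and 0 with the coding-length trend (0.489%) taken out, 0 with no filter (0%), 1 with positions covered by at least 20 reads (3.29%), and 0 to 21 with each replicate left out. The cause was not tested, except that a setting with more or fewer genes or libraries tests other genes. Editing per covering read kept its count in each setting run, 2 in HEK293T and 0 in MDA-MB-231. The coding-length setting was added after seeing the data.

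The replicate block moved the MDA-MB-231 edited reads from 11 to 18 calls (19.1% of all genes) and changed no other count. The numbers were not taken as pairs: same-numbered libraries correlated at 0.098, 0.08 and 0.35 in HEK293T edited reads, at 0.23, 0.44 and 0.58 in HEK293T coverage, and at 0.02 in MDA-MB-231 edited reads and coverage, and free-APOBEC1 replicates 1 and 2 correlated best with the other number in both HEK293T measures.

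With the annotated-length trend taken out, 11 coverage rises turned slightly negative: ATP5F1D (-0.19), ATP5MC1 (-0.0015), ATP5ME (-0.088), ATP5MJ (-0.19), COX5A (-0.067), COX5B (-0.054), COX6A1 (-0.14), COX6B1 (-0.27), COX7C (-0.24), COX8A (-0.16) and UQCRH (-0.14). With the coding-length trend taken out 3 did: ATP5F1E (-0.041), ATP5MJ (-0.014) and COX7C (-0.0498). None of these was called. Of the 35 members tested in edited reads, 11 were called as measured, and up to 14 of the rest took the opposite sign in some setting. Up to 8 of the 36 per-read changes, none of them called, did so too. Depth limits the single positions, where a value rests on 1 to 35 edited reads.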
